A study of Mus musculus with 16 samples.

Results

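The 8 interferon regulatory factor genes Irf1, Irf2, Irf3, Irf4, Irf5, Irf7, Irf8 and Irf9 were followed in eWAT, the epididymal white fat depot, of obese db/db mice. They were found by symbol, through the Ensembl identifiers, among the 55573 genes of the deposited table, and all 8 were among the 20822 genes that passed a filter on low counts and were tested. All mice were C57BLKS/J-db/db males, which lack a working long form of the leptin receptor, and all were kept on chow. At 4 weeks of age they received through the retroorbital vein either AAV8-LRG1-FL, a virus that encodes LRG1 with a FLAG tag at its C-terminal end, or AAV8-eGFP, which encodes a green fluorescent protein. The CB7 promoter of the vector is not limited to fat cells, and AAV8 also reaches the liver. eWAT was collected at week 7 and at week 10, from 4 LRG1 mice and 4 eGFP mice each time, which made 16 RNA-seq libraries. Each cage of 4 mice had been assigned to a virus as a whole, and the cage of each mouse is not given in the sources used here, so the virus and the cage cannot be told apart.

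Interferon regulatory factors are transcription factors that share a helix-turn-helix DNA-binding domain, named for its conserved tryptophans, and bind repeats of the sequence GAAA. Irf3, Irf5 and Irf7 are activated by kinases downstream of sensors of nucleic acids and microbial products and switch on interferon and cytokine genes. Irf9 is a part, with Stat2, of the complex through which type I interferons act, and Irf1 is itself induced by interferon-gamma and drives genes of antigen presentation, while Irf2 competes with Irf1 for the same sites. Irf4 and Irf8 bind composite sites together with the ETS factor Spi1 or with Batf factors, and are known from lymphocytes, dendritic cells and macrophages. In fat, Irf4 is also known as a fasting-induced regulator of lipolysis genes in adipocytes, and Irf5 is known from inflammatory adipose macrophages.

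Values are CPM, the counts of a gene per 1000000 counts of its library, with library totals corrected by TMM scaling for differences in RNA composition. Library totals were 45376227 to 67539937 counts, and mitochondrial ribosomal RNA took 27.1% to 30.4% of them in LRG1 mice and 24.1% to 25.8% in eGFP mice of week 7, and 24.8% to 28.1% and 24.3% to 27.5% in those groups at week 10. A fit without the mitochondrially encoded genes called 6 of the 8 factors lower in LRG1 mice at week 7 (10.5% of all genes) and 2 at week 10 (5.11%). The part of mitochondrial ribosomal RNA in the differences given here was not otherwise tested. Lrg1, which checks the labels, was at 288 to 478 CPM in LRG1 mice and 86.2 to 110.2 CPM in eGFP mice of week 7, and at 286 to 624 CPM and 99.6 to 115 CPM in those groups at week 10. Genes that mark leukocytes, macrophages, T cells and endothelial cells moved with the virus. The summed level of 10 pan-leukocyte genes was 521 to 734 CPM in LRG1 mice and 1710 to 2144 CPM in eGFP mice of week 7, and 528 to 771 CPM and 910 to 2594 CPM in those groups at week 10. Of these genes, 10 of 10 were lower in the LRG1 group at both weeks. Of 12 macrophage genes, 11 were lower at week 7 and 10 at week 10, and of 10 T cell genes, 9 and 4. Of 8 B cell genes, 0 were called at either week, by edgeR, DESeq2 or limma-voom. Of 4 plasma cell genes tested, 1 was lower at each week. Of 6 mast cell genes, 0 were called at week 7, and 6 were lower at week 10 by edgeR but 0 by limma-voom. Of 10 adipocyte genes, 2 were higher at each week and none was lower, and of 8 endothelial genes, 6 were higher at week 7 and 1 at week 10. The summed level of the endothelial genes was 596 to 858 CPM in LRG1 mice and 328 to 423 CPM in eGFP mice of week 7, and 616 to 908 CPM and 281 to 624 CPM in those groups at week 10. Within the eGFP group of week 10 the libraries of replicates 1 and 3 stood apart, with 2560 and 2590 CPM of the pan-leukocyte genes against 910 and 1150 CPM in replicates 2 and 4, 384 and 429 CPM of 6 mast cell genes against 47.7 and 102 CPM, and 8350 and 10000 CPM of the adipocyte genes against 18200 and 17400 CPM. Week 10 calls and levels per kilobase are therefore also given without these 2 mice. The comparison of the viruses at week 10 then called 1 of 10 pan-leukocyte genes, 5 of 12 macrophage genes and 0 of 10 T cell genes lower (median log2 fold changes of -0.68, -0.77 and -1.502), and 1 of 10 adipocyte genes and 0 of 8 endothelial genes higher (medians of 0.070 and 0.33). It called 0 of 8 B cell genes, 0 of 4 plasma cell genes and 3 of 6 mast cell genes lower.

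At week 7, 6 of the 8 factors were lower in LRG1 mice than in eGFP mice, and none was higher (edgeR, adjusted p below 0.01 in 1 fit of all 16 libraries). These were Irf1, Irf2, Irf5, Irf7, Irf8 and Irf9, with log2 fold changes from -0.73 to -1.76. Among all 20822 genes tested, 10.7% were called lower and 7.37% higher in this comparison. The median log2 fold change was -0.83 for the 8 factors and 0.0059 for all genes tested. For 7 of the 8 factors, Irf4 being the exception, every LRG1 mouse was below every eGFP mouse, which held for 19.4% of all genes tested. In whole tissue, fewer cells of a type and less RNA per cell cannot be told apart, and the part of the leukocyte genes above in these differences was not tested.

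**Figure D1:**
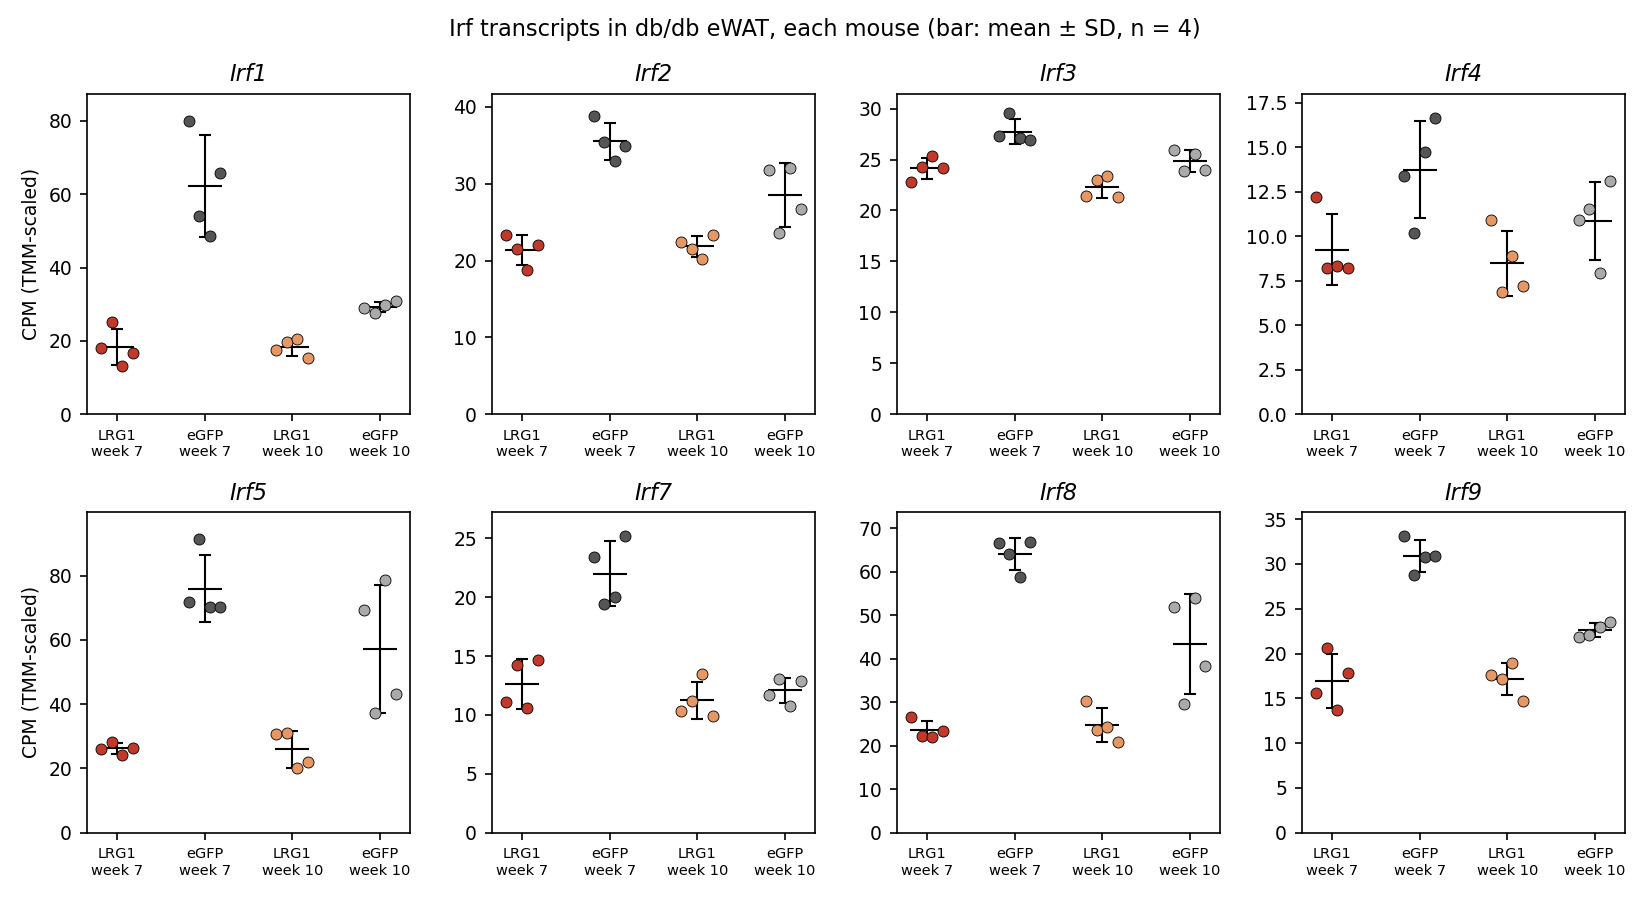
CPM of the 8 interferon regulatory factor genes in each of the 16 mice, by virus and week, with a linear axis from 0 in each panel; points are mice, and the bar is the mean with its SD over 4 mice. At week 7 the LRG1 mice lie below the eGFP mice without overlap for every factor except Irf4, and for Irf5 and Irf8 the eGFP mice of week 10 fall into a high and a low pair.

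Irf1, Irf7 and Irf9 are the factors most tied to interferon signalling. Irf1 was at 18.2, 25.2, 13.3 and 16.8 CPM in LRG1 mice of week 7, against 80.0, 54.1, 48.6 and 65.9 CPM in eGFP mice. The lowest eGFP mouse was close to double the highest LRG1 mouse, and Irf1 fell by 1.76 on the log2 scale (SE 0.18, adjusted p = 4.1e-06), the largest change among the 8. Irf9 was at 15.6, 20.7, 13.7 and 17.8 CPM in LRG1 mice and 33.1, 28.8, 30.8 and 30.9 CPM in eGFP mice, and fell by 0.87 (SE 0.11, adjusted p = 3.6e-05). Irf7, the factor that amplifies the type I interferon response, was at 11.1, 14.2, 10.6 and 14.7 CPM in LRG1 mice and 23.4, 19.4, 19.97 and 25.1 CPM in eGFP mice. It fell by 0.80 (SE 0.13, adjusted p = 3.2e-04).

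Irf5 and Irf8, known from macrophages and dendritic cells, changed by nearly as much as Irf1. Irf5 was at 26.2, 28.2, 24.3 and 26.4 CPM in LRG1 mice of week 7, against 71.9, 91.5, 70.3 and 70.2 CPM in eGFP mice, and fell by 1.53 on the log2 scale (SE 0.21, adjusted p = 7.2e-05). Irf8 was at 26.5, 22.4, 21.96 and 23.3 CPM in LRG1 mice and 66.8, 64.2, 58.9 and 66.8 CPM in eGFP mice, and fell by 1.45 (SE 0.16, adjusted p = 9.4e-06). In both genes the groups lay far apart, and for Irf5 eGFP replicate 2, at 91.5 CPM, stood above the other eGFP mice. The summed level of 5 genes of type 1 conventional dendritic cells, which depend on Irf8, was 49.8 to 61.0 CPM in LRG1 mice and 165 to 184 CPM in eGFP mice, with 4 of the 5 called lower. At week 10, 2 of these 5 were lower, or 1 without eGFP replicates 1 and 3 of that week. Other dendritic lists moved less. Of 5 type 2 conventional genes, 2 were lower at week 7 and 1 at week 10, with Cd209a higher at both weeks. Without eGFP replicates 1 and 3, none of these 5, Cd209a included, was called at week 10 in either direction. Of 6 plasmacytoid genes, 1 was lower at week 7 and 0 at week 10. Irf2, the competitor of Irf1, was at 23.4, 21.6, 18.7 and 22.1 CPM in LRG1 mice and 38.8, 35.4, 33.0 and 35.0 CPM in eGFP mice. It fell by 0.73 (SE 0.10, adjusted p = 7.6e-05).

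Irf3 and Irf4 did not pass the test at week 7. Irf3, which is present in most cells and is controlled mainly by phosphorylation, was at 22.8, 24.2, 25.4 and 24.2 CPM in LRG1 mice and 27.3, 29.6, 27.2 and 26.9 CPM in eGFP mice. The groups did not overlap, but the log2 fold change was only -0.20 (SE 0.06, adjusted p = 0.022). Irf4 was at 12.2, 8.20, 8.30 and 8.20 CPM in LRG1 mice and 13.4, 10.2, 14.7 and 16.7 CPM in eGFP mice, with a log2 fold change of -0.57 (SE 0.19, adjusted p = 0.032).

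**Figure D2:**
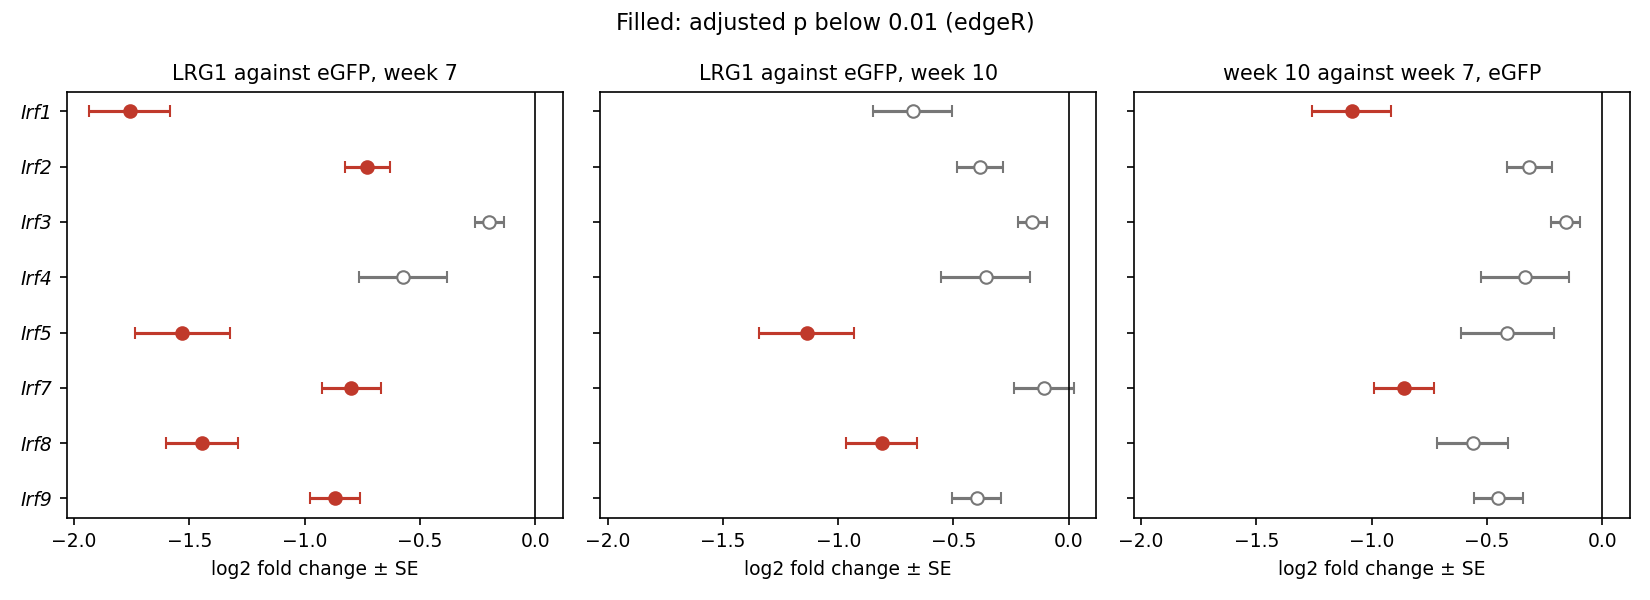
Log2 fold change of each factor with its SE (edgeR, 4 mice per group) for LRG1 against eGFP at week 7, for the same comparison at week 10, and for week 10 against week 7 in eGFP mice; filled points have an adjusted p below 0.01. At week 7, 6 factors are filled, and in each of the other comparisons 2 are, Irf5 and Irf8 between the viruses at week 10 and Irf1 and Irf7 between the weeks.

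At week 10, Irf5 and Irf8 were lower in the LRG1 group, no factor was higher, and 6 did not pass the test. In this comparison 5.24% of all genes tested were called lower and 3.66% higher. Irf5 was at 30.6, 31.0, 20.2 and 22.02 CPM in LRG1 mice and 69.4, 37.3, 78.6 and 43.2 CPM in eGFP mice, and fell by 1.14 on the log2 scale (SE 0.20, adjusted p = 0.0024). Irf8 was at 30.3, 23.6, 24.2 and 20.9 CPM in LRG1 mice and 51.9, 29.7, 54.0 and 38.4 CPM in eGFP mice, and fell by 0.81 (SE 0.15, adjusted p = 0.0030). In both genes eGFP replicates 1 and 3 were the high mice, and for Irf8 the lowest eGFP mouse lay within the range of the LRG1 mice. Without eGFP replicates 1 and 3 the log2 fold change was -0.63 for Irf5 (adjusted p = 0.031) and -0.46 for Irf8 (adjusted p = 0.055), and no factor was called, as 74 of 21872 genes (0.338%) were called lower. With eGFP replicates 2 and 4 removed instead it was -1.51 for Irf5 and -1.10 for Irf8, and 3 factors were called lower, as were 3178 of 21915 genes (14.5%).

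The remaining factors differed less at week 10. Irf1 was at 17.6, 19.6, 20.6 and 15.4 CPM in LRG1 mice and 28.9, 27.5, 29.8 and 30.8 CPM in eGFP mice, which did not overlap, with a log2 fold change of -0.68 (SE 0.17, adjusted p = 0.012). Irf9 was at 17.6, 17.2, 18.9 and 14.7 CPM in LRG1 mice and 21.8, 22.1, 22.98 and 23.5 CPM in eGFP mice, with a log2 fold change of -0.40 (SE 0.11, adjusted p = 0.016). Irf2 was at 20.2 to 23.3 CPM in LRG1 mice and 23.6 to 32.0 CPM in eGFP mice, with a log2 fold change of -0.39 (SE 0.10, adjusted p = 0.012). These values lay just beyond the threshold, and DESeq2 called Irf1, Irf2 and Irf9 lower along with Irf5 and Irf8. Without eGFP replicates 1 and 3 (edgeR), the log2 fold change was -0.67 for Irf1 (adjusted p = 0.082) and -0.41 for Irf9 (adjusted p = 0.089). That of Irf2 was then -0.20 (adjusted p = 0.26). Irf7 was at 10.3, 11.2, 13.5 and 9.91 CPM in LRG1 mice and 11.7, 13.1, 10.8 and 12.9 CPM in eGFP mice, with a log2 fold change of -0.11 (SE 0.13, 95% interval -0.39 to 0.17, adjusted p = 0.59). Its groups overlapped, unlike at week 7. Irf3 and Irf4 had log2 fold changes of -0.16 (SE 0.06) and -0.36 (SE 0.19). In 5 of the 8 factors (Irf1, Irf2, Irf3, Irf5 and Irf9) every LRG1 mouse was below every eGFP mouse, as for 10.1% of all genes tested.

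The count of factors called lower at week 10 moved with single libraries. It was 1 without eGFP replicate 1 or without eGFP replicate 3, when 1.29% and 1.37% of all genes tested were called lower, and 4 without eGFP replicate 2, when 9.62% were. It was 0 without LRG1 replicate 3 or without LRG1 replicate 4 of week 10, with 0.921% and 0.587% of all genes called lower. Leaving out a mouse of week 7 changed the count to 4 for LRG1 replicate 2 (4.46% of all genes), to 4 for LRG1 replicate 3 (4.41%) and to 3 for eGFP replicate 1 (4.12%). At week 7 the count stayed at 6 without any single library.

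Whether the LRG1 difference itself differed between the weeks was tested as an interaction. No factor passed (edgeR, adjusted p below 0.01), although 5 of the 8 had an unadjusted p below 0.05, as did 9.38% of all genes tested, and 0.307% of all genes tested were called higher and 0.0192% lower. Irf1 had the largest value, 1.08 on the log2 scale (SE 0.24, adjusted p = 0.044), which means a smaller LRG1 difference at week 10, and DESeq2 called it at 1.08 (adjusted p = 0.0035), whereas limma-voom called none. For Irf7 the value was 0.69 (SE 0.18, adjusted p = 0.099), for Irf8 0.64 (SE 0.22, adjusted p = 0.27) and for Irf9 0.47 (SE 0.15, adjusted p = 0.21). Irf5 was at 0.39 (SE 0.29, adjusted p = 0.79), with a 95% interval of -0.23 to 1.02, so at this precision its LRG1 difference could not be told to differ between the weeks or to be the same. Without eGFP replicates 1 and 3 of week 10, Irf8 was called at 0.99 (adjusted p = 0.0035) and Irf1 was at 1.09 (adjusted p = 0.027), with 1.3% of all genes called higher.

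Between the weeks, factors were called in eGFP mice and none in LRG1 mice. The difference between these changes is the same contrast as the interaction above, for which no factor passed (edgeR). In eGFP mice, Irf1 fell by 1.09 on the log2 scale at week 10 relative to week 7 (SE 0.17, adjusted p = 0.0016) and Irf7 fell by 0.86 (SE 0.13, adjusted p = 9.9e-04), while 1.51% of all genes tested were called lower and 0.629% higher. The range of Irf1 was 27.5 to 30.8 CPM in eGFP mice of week 10 and 48.6 to 80.0 CPM in those of week 7, and that of Irf7 was 10.8 to 13.1 CPM and 19.4 to 25.1 CPM. The weeks did not overlap for 6 of the 8 factors (Irf1, Irf2, Irf3, Irf7, Irf8 and Irf9), all lower at week 10, as were 6.89% of all genes tested. Irf9 was at -0.45 (SE 0.11, adjusted p = 0.020), Irf8 at -0.56 (SE 0.15, adjusted p = 0.041) and Irf5 at -0.41 (SE 0.20, adjusted p = 0.27). Without eGFP replicates 1 and 3 of week 10, 5 factors were called lower (Irf1, Irf2, Irf5, Irf7 and Irf8), as were 1146 of 21872 genes (5.24%), with Irf5 and Irf8 both at -0.92. In LRG1 mice the log2 fold changes of the 8 factors lay between -0.17 and 0.07, and the weeks overlapped for every factor. None was called (0.0048% of all genes tested were called lower and 0.0048% higher), and DESeq2 and limma-voom also called none. No factor had an unadjusted p below 0.05 (edgeR), against 8.39% of all genes tested, which does not set the factors apart from other genes. Of the 8, the widest 95% intervals were those of Irf4, -0.54 to 0.29, and Irf5, -0.46 to 0.42. Changes within these bounds remain compatible with the data. Both comparisons of weeks use the same groups as the comparisons of viruses, and age and day of collection cannot be told apart.

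Levels can be set between genes only per length, here as CPM per kilobase of the exon length in the deposited table. Irf5 had the highest level of the family in every group, with medians of 9.06 CPM per kilobase in LRG1 mice and 24.5 in eGFP mice of week 7, and 9.06 and 19.4 in those groups at week 10. Irf4 was the lowest of the 8 in every group, at 1.68 and 2.86 CPM per kilobase at week 7 and 1.64 and 2.28 at week 10. The order between these ends differed between the viruses at week 7. In LRG1 mice Irf3 came after Irf5, at 7.03 CPM per kilobase, without overlap with Irf1 at 4.40, and Irf1, Irf7, Irf8, Irf9 and Irf2 formed a run from 4.40 to 2.95 in which neighbours overlapped. In eGFP mice Irf1 followed Irf5 at 15.1 CPM per kilobase, Irf8 at 9.28 and Irf3 at 7.91 overlapped, and Irf7 at 5.74 and Irf9 at 5.73 could not be ordered. At week 10, Irf3 again followed Irf5 in LRG1 mice (6.45 CPM per kilobase), and in eGFP mice Irf1, Irf3, Irf8, Irf9, Irf2 and Irf7 formed a run from 7.38 to 3.25 with overlapping neighbours. In eGFP replicates 2 and 4 alone, Irf5 was at 12.9 and 14.9 CPM per kilobase and Irf8 at 4.21 and 5.44, while Irf1 was at 6.91 and 7.75, and Irf5 and Irf4 were still the highest and the lowest. The annotated exons cover 100% of the span of Irf7, 83.4% of Irf9, 66.2% of Irf3 and 47.6% of Irf1, since retained introns are among their transcripts, and a length that counts these lowers the level per kilobase of such genes. On library totals in place of TMM, 30 of the 32 ranks of the 8 genes in the 4 groups were the same.

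**Figure D3:**
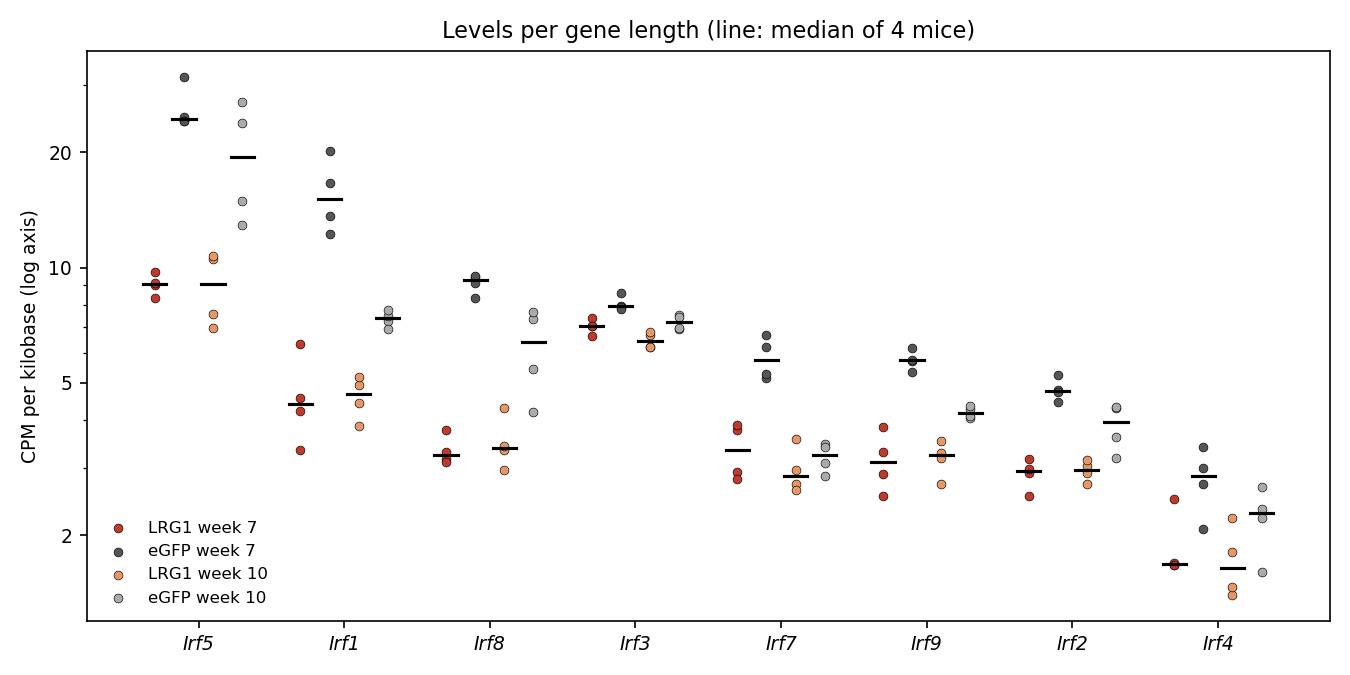
Levels in CPM per kilobase of exon (log axis) of the 8 factors in each mouse, by group; lines are medians of 4 mice. Irf5 is highest and Irf4 lowest in every group, and the eGFP mice of week 7 are the highest group for each of the 8 factors.

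The genes lie on 6 chromosomes of GRCm38. Irf1 spans chr11:53770014-53778374 on the plus strand, Irf2 chr8:46739732-46847458, Irf3 chr7:44997648-45002848, Irf4 chr13:30749226-30766976, Irf5 chr6:29526625-29541871, Irf8 chr8:120736358-120756694 and Irf9 chr14:55603571-55610030, all plus, and Irf7 spans chr7:141262706-141266481 on the minus strand. Whether reads were counted by strand is not given in the sources used here. The exons of Irf5 share 411 bases (14.1%) with those of Tnpo3 on the opposite strand, which averaged 6075 counts per library, and those of Irf1 share 796 bases with Gm17334 on the opposite strand, which averaged 174 counts. Part of the counts of these genes may thus belong to the partner, which was not tested. Shared exon bases with other genes were 123 for Irf9, 88 for Irf3 and 45 for Irf7.

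Promoters of all 8 factors were searched for 2 kinds of site through which interferon signals are known to act and for the composite site of ETS factors with Irf4 or Irf8. Those with a match are shown. RefSeq windows of GRCm38.p6, from 250 bases before to 50 after a start site, were at hand for all 8 factors (11 windows). The GAS motif TTCNNNGAA, through which interferon-gamma acts, is its own reverse complement and was present in 8.30% of all 32851 windows. The ISRE core, GAAA and again GAAA with 2 bases of any kind between, was searched on both strands and was present in 3.44%. The ETS-IRF composite, GGAA and GAAA with 2 bases between, was present in 2.72%. Windows of 3 factors held a GAS match, namely Irf1, Irf2 and Irf8, which made 3 of the 11 windows. Of these, that of Irf2 also held an ISRE match and a composite match, which overlap each other. Capitals mark the matches in these windows, all on the plus strand.
Irf1, chr11:53769764-53770063: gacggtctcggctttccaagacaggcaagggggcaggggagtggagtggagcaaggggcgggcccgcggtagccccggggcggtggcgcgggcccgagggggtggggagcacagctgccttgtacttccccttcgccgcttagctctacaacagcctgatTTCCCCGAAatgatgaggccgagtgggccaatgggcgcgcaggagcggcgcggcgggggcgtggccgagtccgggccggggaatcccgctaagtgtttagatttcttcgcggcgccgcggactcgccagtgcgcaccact
Irf2, chr8:46739495-46739794: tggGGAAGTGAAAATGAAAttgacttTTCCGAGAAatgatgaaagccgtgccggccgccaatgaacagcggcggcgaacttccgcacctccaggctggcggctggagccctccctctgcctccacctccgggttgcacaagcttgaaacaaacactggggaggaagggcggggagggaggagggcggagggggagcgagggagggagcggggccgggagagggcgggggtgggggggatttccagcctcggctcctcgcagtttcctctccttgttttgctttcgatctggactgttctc
Irf8, chr8:120736108-120736407: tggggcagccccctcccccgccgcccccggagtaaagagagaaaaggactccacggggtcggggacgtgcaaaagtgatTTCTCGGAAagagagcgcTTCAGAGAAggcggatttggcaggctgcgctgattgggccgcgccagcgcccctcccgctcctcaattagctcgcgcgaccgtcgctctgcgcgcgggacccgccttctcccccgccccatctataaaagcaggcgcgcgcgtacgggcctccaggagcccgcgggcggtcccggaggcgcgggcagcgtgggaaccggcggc
In the Irf1 window TTCCCCGAA begins at -90, counted from the start site. In the Irf8 window TTCTCGGAA and TTCAGAGAA begin at -171 and -153. In the Irf2 window GGAAGTGAAA, GAAAATGAAA and TTCCGAGAA begin at -247, -241 and -224. These are matches of letters, and binding was not measured. The windows of Irf3, Irf4, Irf5, Irf7 and Irf9 held none of these matches. Both Irf9 windows, chr14:55603735-55604034 and chr14:55604329-55604628, begin after the start of the gene span given above. Inexact matches and sites outside the windows were not searched, and a link of these sites to the differences between the viruses was not tested.

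The factors were also set against the leukocyte genes of the same library, as log2 CPM minus the mean log2 CPM of the 10 pan-leukocyte genes. On this scale Irf5, Irf8 and Irf1 did not separate the viruses at week 7. The mean was -0.76 ± 0.13 in LRG1 mice and -0.83 ± 0.10 in eGFP mice for Irf5 (SD, n = 4 each), -0.92 ± 0.25 and -1.07 ± 0.14 for Irf8, and -1.32 ± 0.20 and -1.14 ± 0.32 for Irf1, and the groups overlapped. The other 5 factors were higher relative to the leukocyte genes in every LRG1 mouse than in any eGFP mouse of week 7, by 1.40 for Irf3, 1.02 for Irf4, 0.86 for Irf2, 0.79 for Irf7 and 0.71 for Irf9. Against the mean of 12 macrophage genes the differences at week 7 were -0.44 for Irf1 and -0.12 for Irf8, with overlap, and -0.19 for Irf5, without overlap. At week 10 the differences against the pan-leukocyte genes were 0.15 for Irf5, 0.46 for Irf8, 0.56 for Irf1, 0.84 for Irf9 and 0.88 for Irf4, all with overlap, and 0.87 for Irf2, 1.08 for Irf3 and 1.13 for Irf7, without it. These values changed with the eGFP mice used, and against eGFP replicates 2 and 4 alone they were 0.043 for Irf5, 0.24 for Irf8, 0.022 for Irf1, 0.28 for Irf9 and 0.14 for Irf4, with overlap, and 0.50 for Irf2, 0.60 for Irf3 and 0.48 for Irf7, without it. No test was run on these differences, and the leukocyte genes themselves differ between the viruses. At week 7 their median log2 fold change was -1.59, against 0.0059 for all genes tested. A gene that did not change between the viruses thus comes out higher on this scale. The share of all genes that separate the viruses on it was not counted, so the separations are not particular to the factors.

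**Figure D4:**
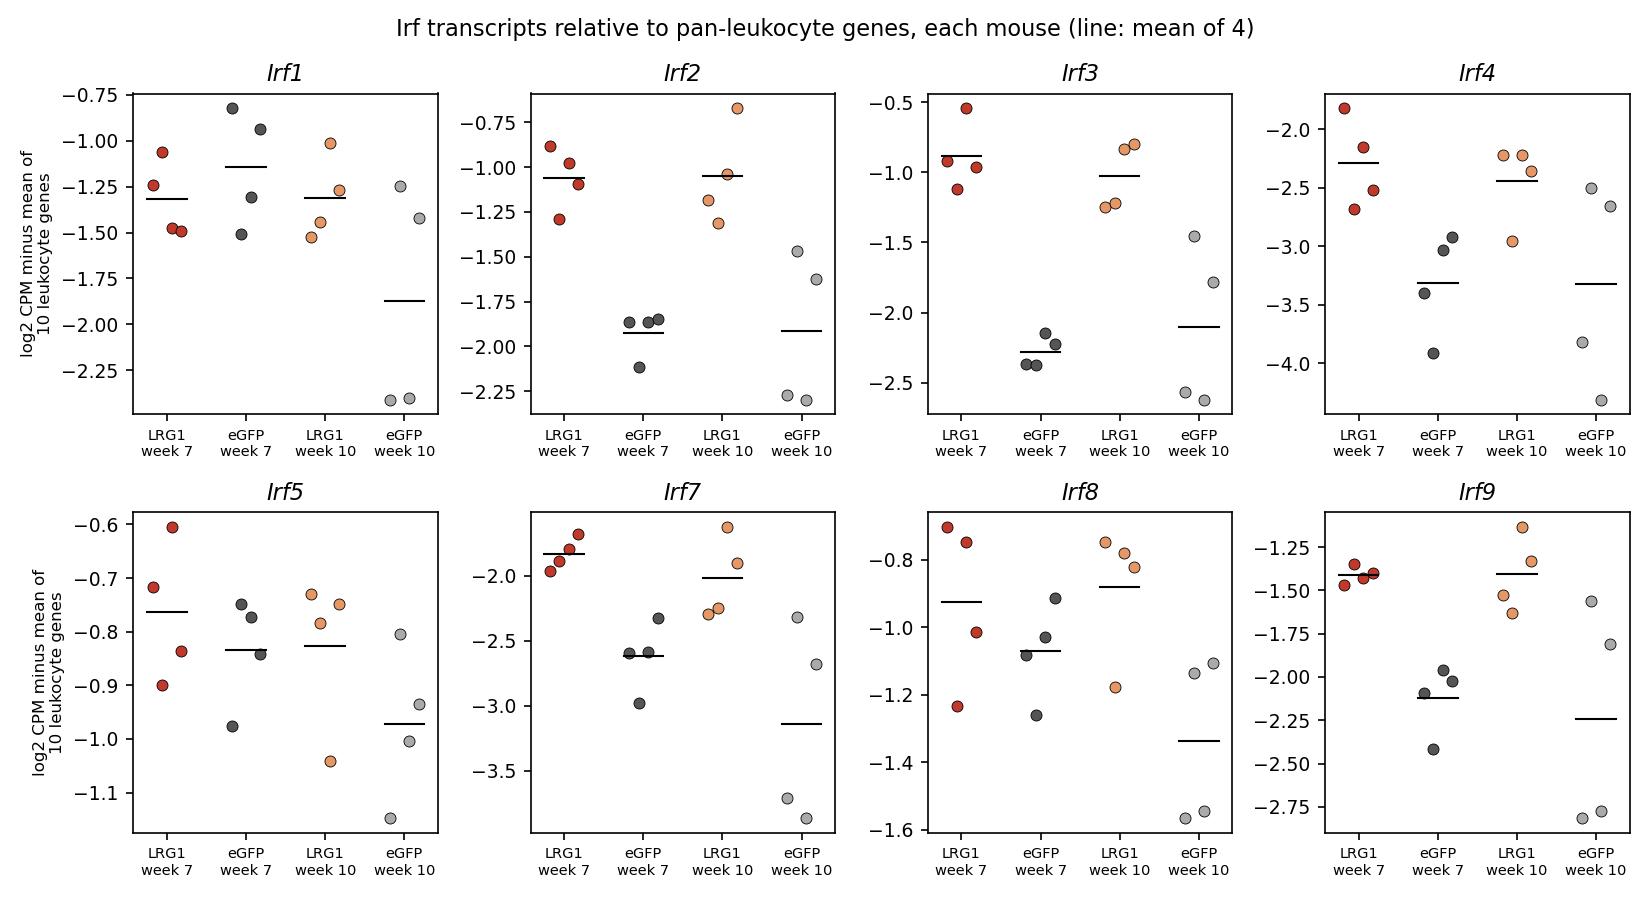
Log2 CPM of each factor minus the mean log2 CPM of 10 pan-leukocyte genes in the same library, by virus and week; points are mice, lines are means of 4 mice, and the axes do not start at 0. The LRG1 and eGFP mice of week 7 overlap for Irf1, Irf5 and Irf8 and are apart for the other factors, and eGFP replicates 1 and 3 of week 10 lie below replicates 2 and 4 for each factor, least so for Irf5.

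Within the groups Irf1, Irf7 and Irf9 varied together, as did Irf2, Irf5 and Irf8, and these 2 sets were chosen after their values were seen. The log2 CPM of each mouse was taken as a deviation from the mean of its group, and the deviations were correlated over the 16 libraries, as a description. Among Irf1, Irf7 and Irf9 Pearson's r was 0.63 to 0.81 (Spearman's rho 0.61 to 0.78), and without the 2 libraries farthest from the median 0.51 to 0.70. Among Irf2, Irf5 and Irf8 r was 0.68 to 0.79 (rho 0.65 to 0.70), and without such libraries 0.56 to 0.62. The 9 pairs between the sets had r from -0.40 to 0.31. Irf3 and Irf4, in neither set, varied in opposite directions, with r = -0.66. The sets were not cleanly closed, as Irf3 had r = 0.44 with Irf5, and 0.57 without the 2 farthest libraries. The points share library depth and the make-up of the tissue piece. In eGFP mice of week 10, Irf5 deviated by 0.35 and 0.53 in replicates 1 and 3, against -0.54 and -0.33 in replicates 2 and 4, whereas Irf1 ranged only from 27.5 to 30.8 CPM over the same 4 mice.

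**Figure D5:**
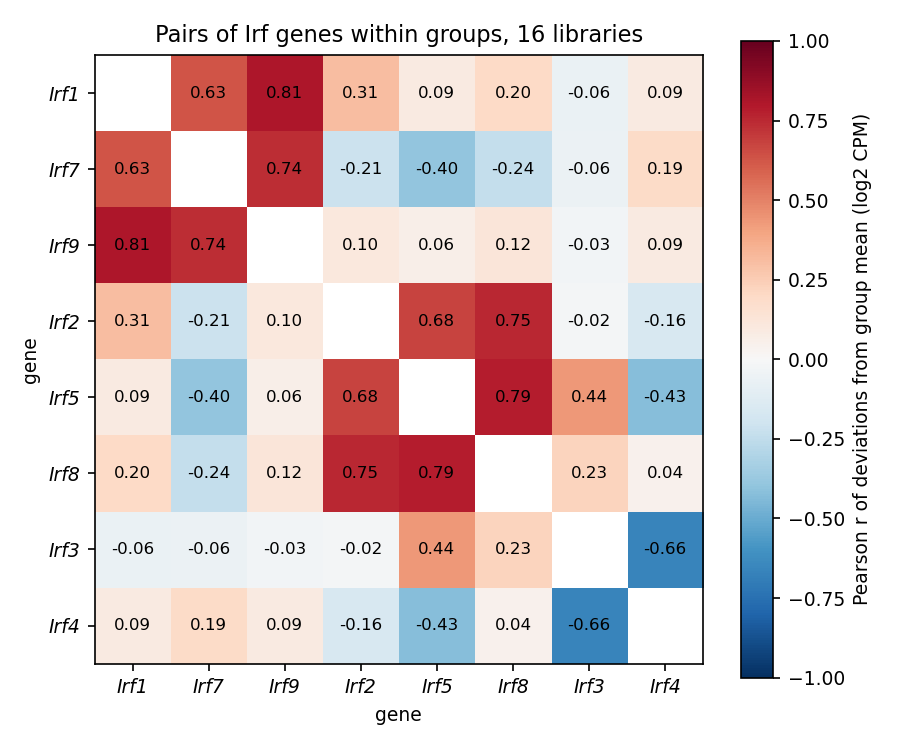
Pearson's r between pairs of factors over 16 libraries, computed on deviations of log2 CPM from the group mean, with a colour scale from -1 to 1; the order of genes was chosen after the values were seen. Irf1, Irf7 and Irf9 form a block of 0.63 to 0.81, and Irf2, Irf5 and Irf8 a block of 0.68 to 0.79.

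The genes whose log2 CPM followed each factor most closely over the 16 libraries, out of 12746 with a mean of 1 CPM or more, differed between the sets. For Irf1 they were Gbp7 and Gbp5 (r = 0.98 for both), which encode interferon-induced GTPases, and Gbp7 fell by 3.07 at week 7 and by 1.19 at week 10 on the log2 scale (-1.16 and not called without eGFP replicates 1 and 3, adjusted p = 0.027). For Irf7 they were Ifi213 and Rtp4 (r = 0.95 for both), and Rtp4, an interferon-induced gene, fell by 2.12 at week 7 and had a log2 fold change of -0.35 at week 10 (adjusted p = 0.15). For Irf9 they were Cd3d, a part of the T cell receptor complex, and Epsti1 (r = 0.98 for both). For Irf5 they were Pkib and Batf (r = 0.99 for both), for Irf8 Grk2 and Lrmp (r = 0.99 for both), and for Irf2 Tifab and Slc15a3 (r = 0.98 for both). These 6 fell at both weeks, Batf by 2.01 at week 7 and by 1.49 at week 10. When eGFP replicates 1 and 3 were left out, none of the 6 was called at week 10, and Batf was at -0.92 (adjusted p = 0.024). For Irf3 they were Rpl7l1 and Maea (r = 0.95 for both). For Irf4 they were Cdk2 and Clasp2 (r = 0.87 for both), neither of which passed the test at either week. Over the deviations within groups these 16 correlations were 0.74 to 0.94. The genes were picked by their r over these same 16 libraries. Their differences between the viruses and their r within groups therefore follow in part from that choice and are not separate results.

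The interferons themselves were rarely counted in eWAT. Ifnb1, the type I interferon that Irf3 and Irf7 induce, had 0 counts in all 16 libraries, which allows at most 0.0424 to 0.0781 CPM, depending on the library, as the level of 3 counts. Of 10 ligand genes, 2 passed the filter. Ifng, the ligand that induces Irf1, had 0, 2, 0 and 5 counts in LRG1 mice of week 7 and 86, 80, 49 and 118 counts in eGFP mice, and was called lower (adjusted p = 4.5e-05). At week 10 it had 5, 0, 6 and 4 counts in LRG1 mice and 8, 10, 8 and 16 counts in eGFP mice, and was not called (adjusted p = 0.11, or 0.24 without eGFP replicates 1 and 3). The ranges did not overlap at either week.

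Of 10 genes of the interferon receptors and the JAK-STAT pathway, 7 were lower at week 7, none was higher and 3 did not pass, with a median log2 fold change of -0.41, and none of the 10 was called at week 10 by edgeR or limma-voom, where 5 had an unadjusted p below 0.05 and DESeq2 called 1 lower. Stat2, the partner of Irf9, fell by 1.16 on the log2 scale at week 7 (SE 0.11, adjusted p = 1.7e-06) and was at -0.37 at week 10 (SE 0.10, adjusted p = 0.020), or -0.28 without eGFP replicates 1 and 3 (adjusted p = 0.22), when none of the 10 was called. Its interaction, at 0.78 (SE 0.15, adjusted p = 0.016), was not called.

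Of 21 genes that sense nucleic acids and microbial products or activate Irf3, Irf5 and Irf7, edgeR called 14 lower at week 7 and none higher, with a median log2 fold change of -0.66, and DESeq2 called 15 lower and 1 higher. At week 10, 5 were lower by edgeR (Tlr4, Tlr7, Unc93b1, Sting1 and Tbk1), with Tank as the 1 that was higher, while DESeq2 called 11 lower and limma-voom 3. Tlr7 and Unc93b1 were the only calls among the 21 without eGFP replicates 1 and 3. The kinase gene Tbk1 fell by 0.42 at week 7 (SE 0.10, adjusted p = 0.0050) and by 0.45 at week 10 (SE 0.10, adjusted p = 0.0065). The related kinase gene Ikbke fell by 1.01 at week 7 (SE 0.20, adjusted p = 0.0014) and was at -0.78 at week 10 (SE 0.20, adjusted p = 0.012). Slc15a4, a lysosomal transporter that Irf5 activation needs, fell by 0.71 at week 7 (SE 0.15, adjusted p = 0.0019). Of the 8 partner genes of Irf4 and Irf8, 6 were lower at week 7, 3 at week 10 and 0 at week 10 without these 2 mice. Spi1, the partner of Irf8 in myeloid cells, fell by 1.64 at week 7 (SE 0.27, adjusted p = 4.0e-04) and by 1.48 at week 10 (SE 0.27, adjusted p = 0.0026). The week 10 values without eGFP replicates 1 and 3 were -0.19 for Tbk1 (adjusted p = 0.13), -0.46 for Ikbke (adjusted p = 0.19) and -0.78 for Spi1 (adjusted p = 0.041), none of them called. Of the 3 Irf2-binding corepressor genes, Irf2bp2 fell by 0.51 at week 7 (SE 0.13, adjusted p = 0.0083), a call lost in 11 of 16 removals of a single library, and none was called at week 10 by edgeR, DESeq2 or limma-voom, 2 having an unadjusted p below 0.05.

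Genes that the factors are known to regulate were counted by factor. Of 8 Irf1 targets, 7 were lower at week 7, with a median log2 fold change of -2.26, and 4 at week 10, with a median of -0.88. Psmb9, an immunoproteasome subunit, was at 3.09 to 4.71 CPM in LRG1 mice and 17.8 to 32.3 CPM in eGFP mice of week 7, and at 3.32 to 5.59 CPM and 8.63 to 11.9 CPM in those groups at week 10. It fell by 2.82 (SE 0.20) and by 1.12 (SE 0.19) at those weeks. Of 9 targets of Irf7 and Irf9, 7 were lower at week 7, with a median of -1.36, and at week 10 none was called by edgeR, DESeq2 or limma-voom, 2 having an unadjusted p below 0.05, with a median of -0.17. Ifit3 fell by 1.65 at week 7 (SE 0.23, adjusted p = 1.1e-04) and was at -0.26 at week 10 (SE 0.23, adjusted p = 0.44). Of 6 targets of Irf5 and Irf8 tested, 3 were lower at week 7 (Il12b, Tnf and Cybb), with a median of -0.76, and 2 at week 10 (Tnf and Cybb), with a median of -0.72. Cybb, the phagocyte oxidase subunit, fell by 1.69 at week 7 (SE 0.22) and by 1.41 at week 10 (SE 0.22). Without eGFP replicates 1 and 3 the week 10 values were -0.80 for Cybb (adjusted p = 0.0064) and -1.26 for Psmb9 (adjusted p = 0.0071), both called. In that fit the calls at week 10 were 2 of 8 Irf1 targets (Gbp2 and Psmb9, median -0.75), 0 of 9 targets of Irf7 and Irf9 (median -0.22), with Ifit3 at -0.51 (adjusted p = 0.28), and 1 of 6 targets of Irf5 and Irf8 (Cybb, median -0.71). Of 6 Irf4 targets known from macrophages and lymphocytes, 2 were lower at week 7 (Mrc1 and Prdm1) and 1 at week 10 (Chil3), or 0 without these eGFP mice. None of 4 lipolysis and thermogenic genes that Irf4 regulates in adipocytes passed the test at either week by edgeR or limma-voom, while 3 at week 7 and 1 at week 10 had an unadjusted p below 0.05 and DESeq2 called 1 higher at week 7. Lipe, the hormone-sensitive lipase, was at 590 to 717 CPM in LRG1 mice and 377 to 423 CPM in eGFP mice of week 7, with a log2 fold change of 0.70 (SE 0.23, adjusted p = 0.028).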

How the data were processed

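RNA-seq counts per gene in whole eWAT of 16 db/db mice were analysed, 4 each for LRG1 and eGFP at weeks 7 and 10. The authors trimmed reads (Cutadapt), aligned them to mm10 (GRCm38) by STAR and summed them by gene in featureCounts, and the deposited values are raw counts without normalization. Versions, strand, multi-mapping and whether reads or pairs were counted are not given in the sources used here. Of 55573 genes, 55394 were matched to a symbol.

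The 8 members and the gene lists were chosen with earlier results of these data known. The test was the two-sided quasi-likelihood F test of edgeR 4.0.16 in R 4.3.3, after filterByExpr and TMM scaling. A single model covered the 16 libraries, with 1 mean per group and 12 residual degrees of freedom, and p-values were adjusted over 20822 genes (Benjamini-Hochberg). Genes were called at an adjusted p below 0.01. An SE is the absolute log2 fold change divided by the square root of its F value. p-values measure the spread between mice, and the limit for a count of 0 covers counting error only. Patterns were compared on log2 CPM with a prior count of 2. Named genes are the members, partners, ligands and targets picked by role from the lists, and the 2 most similar genes per member. No libraries of a group were duplicates (r of log counts 0.961 to 0.985). The alternatives were limma-voom (limma 3.58.1), DESeq2 1.42.0, models of only the groups compared, other scalings and filters, removal of mitochondrially encoded genes, the replicate number as a block, an adjusted p below 0.05, and leaving out each library. Leaving out replicates 1 and 3, or 2 and 4, of the eGFP group of week 10 was chosen after seeing the data. Protein sequences were not used here. Some genes are not reported here, and the lists were counted without them.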

Additional observations from a re-analysis of the deposited data

Results flagged for a closer look

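Single mice stood away from the other 3 of their group, by Dixon's gap criterion at the 95% level, in 3 of the 32 combinations of 8 genes and 4 groups, and chance gives about 1 in 20. They were Irf3 in eGFP replicate 2 of week 7 at 29.6 CPM, Irf5 in the same mouse at 91.5 CPM, and Irf4 in LRG1 replicate 1 of week 7 at 12.2 CPM. The differences of Irf3 and Irf5 between the viruses at week 7 stayed on the same side of the threshold without that mouse.

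For 4 of 48 genes examined, none of them an interferon regulatory factor, the LRG1 difference at week 10 minus that at week 7 passed the test (edgeR), each with a smaller difference at week 10. The values on the log2 scale were 2.10 for Ciita (adjusted p = 4.7e-04), 1.70 for Psmb9 (adjusted p = 0.0051), 1.81 for Gbp2 (adjusted p = 0.0034) and 1.76 for Rtp4 (adjusted p = 0.0014). Of all genes tested, 0.307% were called higher and 0.0192% lower. The 48 genes are not a neutral sample, being picked with earlier results known or for their similarity to a factor in these same libraries.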

How the results depend on the processing

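Directions of the 8 factors between the viruses held at week 7 and week 10 under every alternative tried. The count called lower at week 7 was 6 in the reported analysis and 6 without any single library, 7 by DESeq2, 7 on library totals and 8 at an adjusted p below 0.05. The share of all genes called lower rose too, from 10.7% to 13.6% by DESeq2, 17.5% on library totals and 16.5% at an adjusted p below 0.05. At week 10 the count of factors was 2, against 5 by DESeq2, 5 at an adjusted p below 0.05, 0 with only the 2 groups compared and 0 without eGFP replicates 1 and 3. It was 0 to 4 without single libraries. Here 5.24% of all genes were called lower in the reported analysis, 9.5% by DESeq2, 12.6% at an adjusted p below 0.05 and 0.0523% with only the 2 groups compared. For the difference between the weeks 0 factors were called, against 1 by DESeq2 (Irf1), 1 at an adjusted p below 0.05 (Irf1) and 1 without eGFP replicates 1 and 3 (Irf8), and 0 to 1 without single libraries, where LRG1 replicate 2 of week 7 gave the 1. Genes called higher for this difference were 0.307% of all in the reported analysis, 1.12% by DESeq2 and 0.855% at an adjusted p below 0.05. Between the weeks in eGFP mice 2 factors were called, against 4 on library totals, 4 at an adjusted p below 0.05 and 5 without eGFP replicates 1 and 3. Genes called lower there were 1.51% of all in the reported analysis, 2.29% on library totals and 3.56% at an adjusted p below 0.05. Of all genes, 1092 were lower at week 10, against 1978 by DESeq2, 639 by limma-voom and 10 with only the 2 groups compared. Library totals moved the median of all genes by -0.15 at week 7, where 3636 genes were lower against 2221, and by -0.12 between the weeks in eGFP mice.

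Values near 0 changed sign. For Irf1 between the weeks in LRG1 mice, the log2 fold change of -0.0045 was 0.0049 by DESeq2, 0.028 by limma-voom, 0.0050 with RLE scaling and 0.027 on library totals, where that of Irf5 was 0.022. Without single libraries it lay between -0.13 and 0.19 for Irf1, -0.032 and 0.071 for Irf2, -0.27 and 0.041 for Irf4, -0.11 and 0.087 for Irf5, -0.043 and 0.15 for Irf8, and -0.073 and 0.13 for Irf9. Ifi213 at week 10 was -0.047 by limma-voom, -0.0058 on library totals and -0.12 without eGFP replicates 1 and 3, and between -0.33 and 0.18 without single libraries. Without eGFP replicates 1 and 3, Pnpla2 was -0.00025 at week 10. Without eGFP replicates 2 and 4, Ifit3 was 0.047 and Cdk2 0.056 at week 10, and the difference for Irf3 was -0.011. The cause was not tested.

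Replicate numbers did not pair the mice (median r of deviations -0.046 over 24 same-numbered pairs). With the number as a block the counts of factors were still 6, 2, 0, 2 and 0, Irf1 between the weeks in LRG1 mice was 0.015, and 642 genes were lower at week 10. Groups of 4 mice, the make-up of the tissue piece and unknown strand use limit the precision of all values.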
